A study of Rattus norvegicus with 22 samples.

Results

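Gene expression in the rat conceptus was followed over 3 doses of EMD 82571 in whole embryos, embryo liver and embryo bone, with 1 array per tissue and dose. These 9 arrays were taken from the 22 of the series by their labels: control, EMD50 and EMD150 in each of the 3 tissues. Pregnant Wistar rats received vehicle (control), 50 mg/kg/day (EMD50) or 150 mg/kg/day (EMD150) of EMD 82571, which the title of the series calls a calcium sensitizer. Whole embryos were taken at gestational day 12; liver and bone of embryos were taken at day 20. The labels give daily dosing from day 6 to day 11 and from day 6 to day 17, and the design text gives days 6 to 17, so the day 20 tissues were collected after the last dose on either reading. Each tissue was sampled at 1 day only, so tissue and day cannot be told apart. The sources used here do not say whether litters or dams were pooled or shared between arrays. The dose groups carry no genetic modification in the labels. The remaining arrays were 4 of conceptuses exposed to retinoic acid, which entered 1 alternative fit of the spread alone, and arrays of maternal liver, of which the 6 of control, EMD50 and EMD150 at days 12 and 20 serve as samples outside the selection.

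Late in gestation the fetal liver still makes blood cells while its hepatocytes acquire the enzymes of fatty acid oxidation, glucose production and amino acid breakdown that are needed after birth. Fatty acids are oxidised in mitochondria and peroxisomes by enzymes that are largely under the nuclear receptor PPAR-alpha, and Ehhadh is the peroxisomal bifunctional enzyme of that pathway. Fbp1, fructose-1,6-bisphosphatase, is a rate-controlling enzyme of glucose production. Trpv5 and Trpv6 are calcium-selective channels of epithelia that take up calcium.

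All values are log2 probe set values, and a difference of 1 unit is a doubling. The tissue labels could be checked against markers. Averaged over 10 hepatocyte genes, the 3 embryo liver arrays lay between 14.005 and 14.11. The bone arrays carried high values of Col1a1, Bglap and Ibsp, the collagen and matrix proteins of bone-forming cells. The control bone array also carried hepatocyte transcripts: the same 10 genes averaged 10.54 there, 7.97 in EMD50 bone and 8.04 in EMD150 bone. Albumin (Alb) was 13.60 in control bone, 10.70 in EMD50 bone and 9.44 in EMD150 bone. The EMD50 bone array had a 3′ to 5′ difference of 2.72 over the GAPDH control probe sets, against 0.568 to 0.832 on the other 8 arrays, a sign of shortened RNA or cDNA. The spread of values over an array (SD) ran from 1.51 to 1.83 and was widest in control whole embryo. Within a tissue, pairs of arrays correlated across probe sets at r between 0.980 and 0.996 in embryo, between 0.978 and 0.996 in liver, with control and EMD150 the lowest pair, and between 0.958 and 0.984 in bone.

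The first question was which transcripts followed dose in the whole conceptus. A line on dose was fitted with limma over the 9 arrays with tissue as a block, and its slope is given as the fitted difference between 150 and 0 mg/kg/day with its standard error. No probe set of 15866 passed a Benjamini-Hochberg adjusted p of 0.05 (0% called), and the lowest adjusted p, 0.189, was shared by 600 probe sets. At an unadjusted p under 0.05, 1584 probe sets were higher with dose (9.98%) and 1413 were lower (8.91%). No gene is therefore called for a common dose trend, and what follows describes order and size. A gene is said to step down, or up, where EMD50 lay below (above) control and EMD150 below (above) EMD50. By that reading, 444 probe sets stepped up in all 3 tissues (2.80%) and 245 stepped down in all 3 (1.54%). In single tissues, 29.2% stepped up and 30.0% down in whole embryo, 20.9% and 26.2% in embryo liver, and 15.7% and 8.17% in embryo bone. The upward set had 296 named genes and median differences at EMD150 of 0.35 in embryo, 0.28 in liver and 0.27 in bone, and at EMD50 of 0.24, 0.07 and 0.08. The downward set had 212 named genes and medians of -0.43, -0.41 and -0.32 at EMD150 and -0.31, -0.09 and -0.12 at EMD50. In both sets the embryo thus held most of its difference at the low dose, and liver and bone held most of theirs at the high dose. The interval from EMD50 to EMD150 is also the wider one. Over all probe sets, too, control embryo correlated with EMD50 and EMD150 embryo at 0.986 and 0.980, and those 2 with each other at 0.996. In liver EMD150 correlated with control and EMD50 at 0.978 and 0.981, and those 2 with each other at 0.996. In a bulk sample, fewer cells of a type and less RNA per cell cannot be told apart.

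The genes that stepped down in all 3 tissues were varied in function, and those with the largest differences are described. Herpud1, a membrane protein of the endoplasmic reticulum that serves the breakdown of misfolded proteins, was 8.61, 8.16 and 7.97 in control, EMD50 and EMD150 whole embryo. In embryo liver it was 11.17, 10.92 and 10.23, and in embryo bone 9.25, 8.99 and 8.58. It was lower at each dose in each tissue, with the larger step at EMD50 in embryo and at EMD150 in liver and bone. The slope was -0.73 ± 0.13 (SE, 9 arrays; limma adjusted p = 0.189). Herpud1 is a known target of the unfolded protein response through the ERSE-II element, and its promoter is shown because that element lies in it. The 250 bases before the start of Herpud1 (RefSeq, GRCr8, chr19:10614708-10614957, minus strand) hold 1 match to ERSE-II, searched on both strands, from -124 to -114, given in capitals. Its first 5 letters are also a reverse CCAAT box.
Herpud1: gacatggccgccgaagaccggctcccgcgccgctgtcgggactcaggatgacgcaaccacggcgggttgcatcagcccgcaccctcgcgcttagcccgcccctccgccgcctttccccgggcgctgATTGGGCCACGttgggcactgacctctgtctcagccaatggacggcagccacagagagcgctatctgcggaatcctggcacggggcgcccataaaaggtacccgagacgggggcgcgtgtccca
The element was found in 15 of 27457 rat promoter windows of 300 bases (0.0546%), in 6 of the 8630 windows of genes on the array (0.0695%) and in 1 of the 184 windows of genes stepping down in all 3 tissues (0.543%), which is Herpud1 itself. Of the 27 measured genes of a stress response list (unfolded protein, p53 and oxidative stress), 4 were lower and 0 higher at an unadjusted p under 0.05, against 10.9% and 8.11% of all 10411 genes. Hspa5, the main chaperone of the endoplasmic reticulum, had a slope of -0.41 ± 0.16 without stepping down in every tissue, as it was 12.15, 12.13 and 11.99 in liver but 11.96, 12.09 and 11.36 in bone.

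Ctbs, the lysosomal chitobiase that trims sugar chains of glycoproteins, was 7.82, 7.57 and 7.02 in whole embryo, 9.57, 9.55 and 8.81 in liver and 8.74, 8.68 and 8.05 in bone. Its slope was -0.78 ± 0.12, with most of the difference at the high dose in liver and bone. Cst3, cystatin C, a secreted inhibitor of cysteine proteases, was 10.28, 9.68 and 9.44 in embryo, 9.90, 9.81 and 9.09 in liver and 11.96, 11.72 and 11.34 in bone (slope -0.75 ± 0.13). Mia2, which helps load large cargo into transport vesicles, was 7.49, 7.04 and 6.80 in embryo, 8.16, 7.87 and 7.34 in liver and 6.80, 6.14 and 6.04 in bone (slope -0.71 ± 0.13). A second Mia2 probe set gave -0.62. Bet1 and Sec62, which act in vesicle fusion and in protein entry into the endoplasmic reticulum, had slopes of -0.66 ± 0.12 and -0.62 ± 0.13, and second probe sets gave -0.75 and -0.67 without stepping down in bone. Others that stepped down in all 3 tissues were Ifi30, a lysosomal thiol reductase (-0.54 ± 0.14), Pmpcb, a subunit of the mitochondrial processing peptidase (-0.59 ± 0.14), the cadherin Fat1 (-0.67 ± 0.16), the kinase Mark3 (-0.78 ± 0.16), the elongation factor Aff4 (-0.88 ± 0.20) and the junction protein Amotl1 (-0.58 ± 0.11), whose second probe set gave 0.08.

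Genes that stepped up in all 3 tissues were a mixed group. Hmmr, the hyaluronan-mediated motility receptor that also acts at the mitotic spindle, was 7.72, 8.04 and 8.37 in whole embryo, 8.01, 8.20 and 8.93 in liver and 7.37, 7.63 and 7.98 in bone. Its slope was 0.73 ± 0.12, and a second probe set gave 0.58 ± 0.13. For the cell cycle and DNA replication list, of its 32 measured genes, 1 was higher and 4 were lower at an unadjusted p under 0.05 (8.11% and 10.9% of all genes), and 18 stepped down in whole embryo (56.3%, against 34.4% of all genes). In liver 10 of the 32 stepped up and 4 down, against 19.2% and 27.7% of all genes. Of the 32, 22 lie in the highest of 4 equal groups of probe sets by mean value. The median embryo difference at EMD150 in that group was -0.25. The 250 bases before the start of Hmmr (RefSeq, GRCr8, chr10:25665216-25665465, minus strand) are shown because they hold 4 matches to CCAAT on the reverse strand, in capitals as ATTGG, which begin at -228, -185, -152 and -76.
Hmmr: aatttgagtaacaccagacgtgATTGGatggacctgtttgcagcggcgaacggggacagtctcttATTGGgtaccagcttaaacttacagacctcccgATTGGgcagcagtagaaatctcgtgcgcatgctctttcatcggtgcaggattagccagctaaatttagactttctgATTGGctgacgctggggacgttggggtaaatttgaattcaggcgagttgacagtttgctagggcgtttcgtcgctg
At least 1 CCAAT match on either strand lay in 36.9% of the 222 promoter windows of genes that stepped up in all 3 tissues, in 38.6% of the 184 of genes that stepped down and in 37.6% of the windows of genes on the array. The sets differed more in TATAAA, the TATA box letters (both strands), found in 13.1% of the upward and 3.8% of the downward windows, against 8.71% on the array. Their median GC contents were 56.3% and 61.3%, against 60.3% on the array.

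Baalc, a membrane-linked protein of brain and blood precursors, was 6.02, 6.31 and 6.49 in embryo, 6.54, 6.76 and 7.10 in liver and 6.55, 6.64 and 7.18 in bone (slope 0.55 ± 0.09). The calcium channel Trpv5 was 8.26, 8.85 and 8.99 in embryo, 8.94, 8.97 and 9.42 in liver and 8.82, 8.91 and 9.59 in bone (slope 0.65 ± 0.14). A second Trpv5 probe set gave 0.08, so the probe sets of this gene did not agree. Trpv6 was 7.85, 8.60 and 8.66 in embryo, 8.81, 8.74 and 8.96 in liver and 8.60, 8.65 and 8.81 in bone. The embryo thus gave the widest difference for Trpv6, while its 3 liver arrays had no dose order; the slope was 0.37 ± 0.17 (limma adjusted p = 0.266). Others that stepped up in all 3 tissues were the protease Prss22 (0.57 ± 0.13) and Crot, the carnitine octanoyltransferase of peroxisomes (0.55 ± 0.12), whose second probe set gave -0.11.

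**Figure D1:**
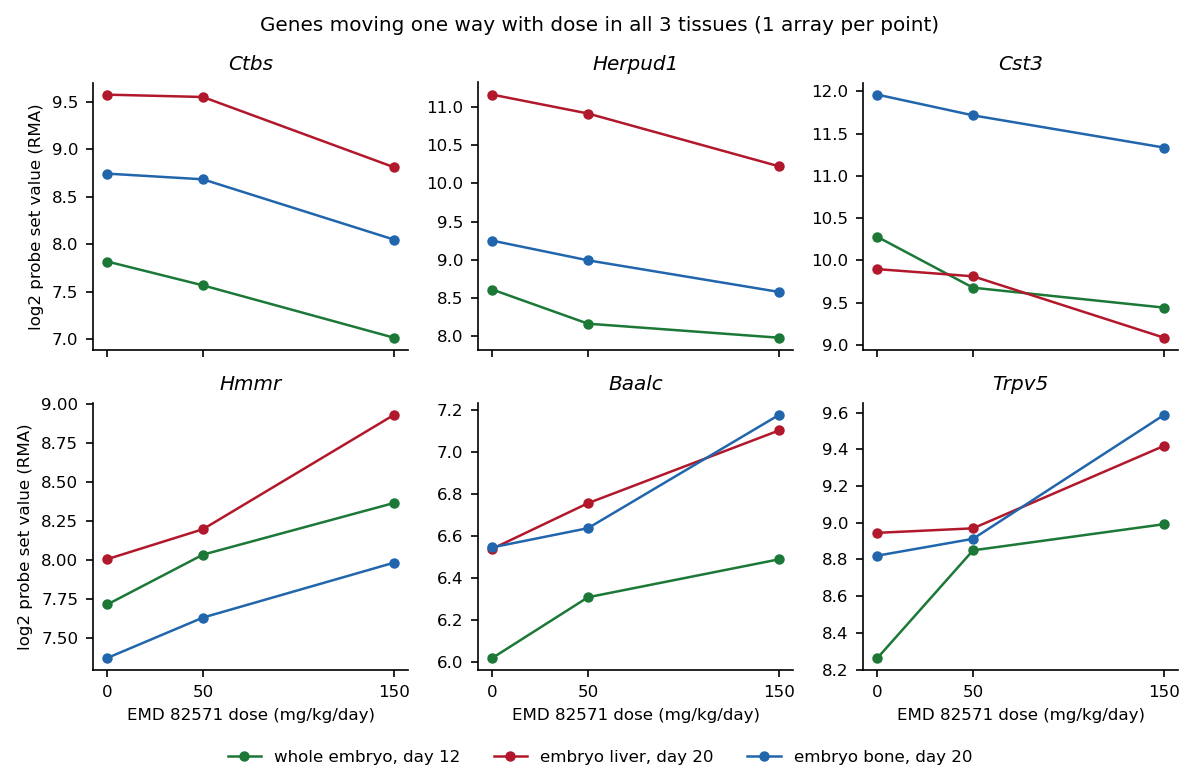
Log2 probe set values (vertical axes, each with its own range) of Ctbs, Herpud1, Cst3, Hmmr, Baalc and Trpv5 against the dose of EMD 82571 in mg/kg/day, 1 array per point, with a line for each tissue. The first 3 genes step down and the last 3 step up in whole embryo, liver and bone, for example Ctbs from 9.57 to 8.81 in liver and Baalc from 6.55 to 7.18 in bone.

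Among the calcium channel genes, 7 of 30 measured were higher with dose and 0 lower at an unadjusted p under 0.05, against 8.11% and 10.9% of all genes, and the median slope was 0.16 against -0.03 over all genes. Cacna1d, a pore subunit of L-type channels, was 7.03, 7.31 and 7.50 in embryo, 7.61, 7.68 and 8.04 in liver and 7.35, 7.48 and 7.67 in bone (slope 0.40 ± 0.10). This probe set stepped up in each tissue, as did that of Trpv5, but 2 other Cacna1d probe sets, with slopes of 0.19 and 0.27, had no dose order in liver. The others were the pore subunit Cacna1a (0.41 ± 0.15), the accessory subunits Cacng2 (0.39 ± 0.12) and Cacnb1 (0.34 ± 0.13), Trpc4 (0.27 ± 0.09) and the ryanodine receptor Ryr2 (0.26 ± 0.11). In the nerve cell list 11 of 36 were higher and 0 lower, against the same 8.11% and 10.9% of all genes, and the median slope was 0.24. Syt7, a calcium sensor of vesicle release, gave 0.61 ± 0.13, and its other probe sets 0.16 and 0.49. The vesicular monoamine transporter Slc18a2 gave 0.56 ± 0.14, and a second probe set 0.20, with -0.08 in liver. Neither list held a gene past the adjusted threshold. Signal level moved with these counts. With the probe sets split into 4 groups of equal size by mean value, the slope was above 0 in 74.4%, 61.5%, 44.4% and 22.7%, from the lowest to the highest group. The median mean value was 7.41 for the probe sets that stepped up in all 3 tissues and 9.43 for those that stepped down. Restricting to probe sets above the median level left 112 up and 205 down, which turned the share of up-steps from 64.4% to 35.3%; the part of signal level in the counts was not tested further.

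In the 6 maternal liver arrays, which played no part in choosing these genes, 202 of the 245 probe sets that stepped down had a dose slope below 0 (82.4%, against 46.3% of all probe sets). Of the 444 that stepped up, 394 had a slope above 0 (88.7%, against 53.7%). Herpud1 gave -0.32 ± 0.17 there. At an unadjusted p under 0.05 (limma) the maternal slope was lower for 11 of the 245 (4.49%, against 1.97% of all probe sets). It was higher for 26 of the 444 (5.86%, against 2.11%). No maternal slope passed the adjusted threshold (limma, lowest adjusted p = 0.909; 646 probe sets had an unadjusted p under 0.05), and the labels do not say whether the maternal livers came from the dams of these conceptuses.

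The second question was which genes stepped with dose in embryo liver without the same order in the other tissues. Counting probe sets that stepped in liver by at least 1 log2 unit between control and EMD150 and did not step in the same direction in embryo or bone, 42 stepped down (0.265%) and 11 stepped up (0.0693%). A member can still differ as much in embryo or bone without an order there. The liver slope minus the mean of the other slopes, given below, had an unadjusted p under 0.05 (limma) for 32 of the 42 and 9 of the 11. It had one for 1142 of all 15866 probe sets, but the members were chosen on liver values. For Marcks, a member that stepped down, it was -0.08. The 42 include 36 named genes of varied function, of which those with the largest differences and some known hepatocyte genes are described. Sult1b1, a cytosolic sulfotransferase that conjugates thyroid hormones and phenols, was 7.86, 7.30 and 6.27 in control, EMD50 and EMD150 liver. In embryo it was 6.02, 6.06 and 6.28 and in bone 6.06, 6.13 and 6.43, so the EMD150 liver value lay within the range of embryo and bone. Serpina3c, a secreted serine protease inhibitor, was 10.92, 10.60 and 8.53 in liver, 6.38, 6.73 and 7.02 in embryo and 6.97, 6.74 and 7.22 in bone. Asgr1, the asialoglycoprotein receptor subunit that takes up glycoproteins at the hepatocyte surface, was 9.72, 9.46 and 8.46 in liver, and between 5.68 and 6.08 in embryo and between 5.73 and 5.92 in bone.

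For most of these genes the larger part of the difference lay between EMD50 and EMD150, which is also the wider dose interval. Gnmt, glycine N-methyltransferase, which consumes the methyl donor S-adenosylmethionine, was 11.74, 11.68 and 10.18 in liver. Dmgdh, dimethylglycine dehydrogenase of choline breakdown, was 7.59, 7.38 and 6.58. Rbp2, a cellular retinol-binding protein, was 11.88, 11.79 and 10.12. Slco1b2, the organic anion transporter of hepatocytes, was 9.77, 9.70 and 8.49, although a second probe set differed by -0.41. Cebpa, a transcription factor of hepatocyte maturation, was 8.04, 8.02 and 7.03, just inside the limit with a difference of -1.01, as was Akap7 at -1.001. Cyp4f4, at -0.9996, lay just outside. Alcohol dehydrogenase Adh1c was 13.24, 13.00 and 11.98, arylacetamide deacetylase Aadac 9.09, 8.88 and 7.85, and alanine aminotransferase Gpt 9.72, 9.51 and 8.65. Actg2, the smooth muscle actin, and Lgals4, galectin 4, were exceptions, with 8.12, 6.53 and 6.41 and with 7.73, 6.86 and 6.28, so that EMD50 already held most of the difference.

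Among the named genes that stepped up in embryo liver alone, Hbg1, a globin chain, had the largest liver difference, at 9.01, 9.65 and 10.46. In whole embryo Hbg1 was 14.17, 13.97 and 14.19, and in bone 7.32, 7.13 and 7.31, without a dose order in either. The 5 red cell precursor markers averaged 12.62, 12.64 and 12.62 in liver. Msmo1, a sterol oxidase of cholesterol synthesis, was 10.23, 10.49 and 11.27, and Avpr1a, the vasopressin receptor of hepatocytes, 6.47, 6.49 and 7.78. Msmo1 lay just inside the limit at 1.04, and Calm2, at 0.97, just outside. Topoisomerase Top1 was 6.95, 7.07 and 8.34, but a second probe set differed by 0.14. Rescaling the arrays changed the balance of this set: 11 up and 42 down became 24 and 44 after quantile normalization and 25 and 37 after equalising the SD, a share of up-steps of 20.8%, 35.3% and 40.3%.

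**Figure D2:**
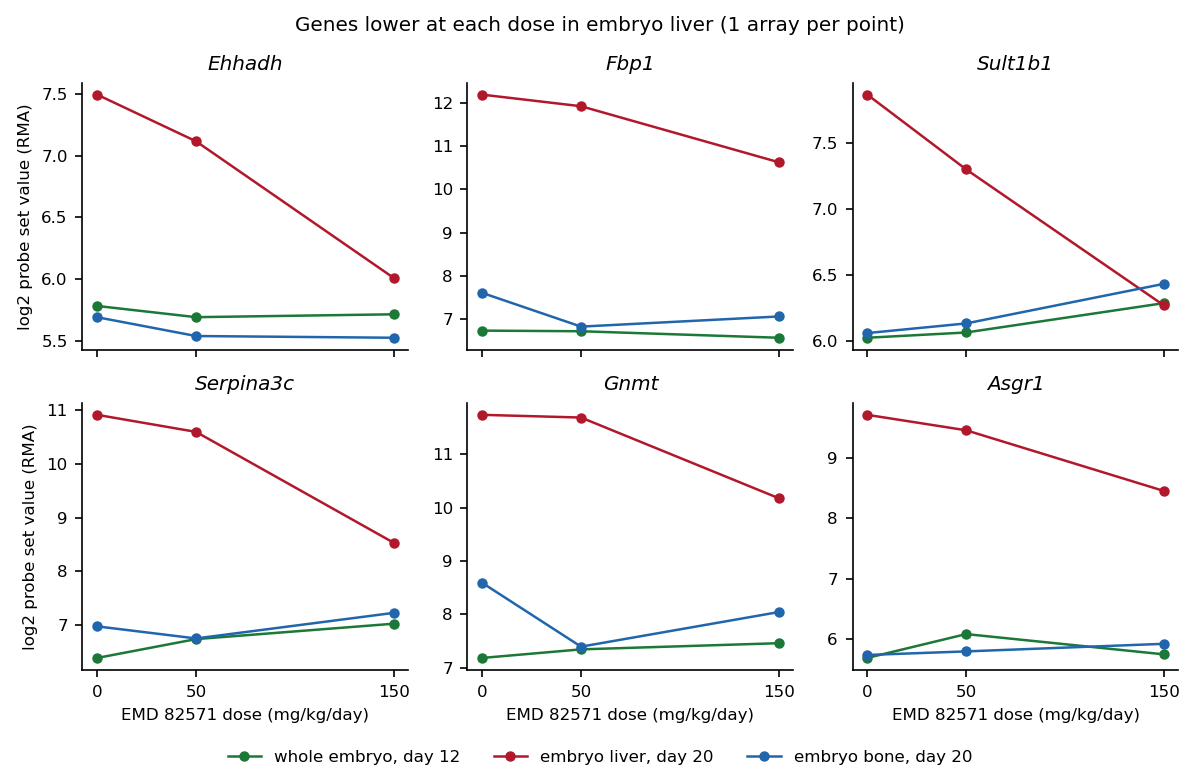
Log2 probe set values (vertical axes, each with its own range) of Ehhadh, Fbp1, Sult1b1, Serpina3c, Gnmt and Asgr1 against the dose of EMD 82571 in mg/kg/day, 1 array per point, with a line for each tissue. In every panel the liver line steps down at both doses, such as Serpina3c from 10.92 over 10.60 to 8.53, and embryo and bone differ less between control and EMD150.

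Ehhadh was 7.49, 7.12 and 6.01 in liver, 5.78, 5.69 and 5.71 in whole embryo and 5.69, 5.54 and 5.52 in bone. Because the small differences in bone also ran in dose order, it was not counted in the liver-only set, although EMD150 liver differed from control by -1.48. Fbp1 was 12.18, 11.92 and 10.62 in liver, 6.74, 6.73 and 6.58 in embryo and 7.61, 6.83 and 7.07 in bone, and its small steps in embryo kept it out of that set too. The slopes over all tissues were -0.57 ± 0.23 for Ehhadh and -0.73 ± 0.26 for Fbp1 (limma adjusted p = 0.232 and 0.211). The 250 bases before the start of these genes, which carry the clearest liver pattern of the given markers, hold 1 reverse CCAAT match each, in capitals, from -71 to -67 in Ehhadh (chr11:92746159-92746408, plus strand) and from -150 to -146 in Fbp1 (chr17:2213457-2213706, plus strand; RefSeq, GRCr8).
Ehhadh: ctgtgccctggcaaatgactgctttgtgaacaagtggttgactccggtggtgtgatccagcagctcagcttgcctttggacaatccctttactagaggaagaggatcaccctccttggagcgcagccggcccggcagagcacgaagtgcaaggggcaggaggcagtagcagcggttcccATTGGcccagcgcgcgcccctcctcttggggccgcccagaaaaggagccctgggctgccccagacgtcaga
Fbp1: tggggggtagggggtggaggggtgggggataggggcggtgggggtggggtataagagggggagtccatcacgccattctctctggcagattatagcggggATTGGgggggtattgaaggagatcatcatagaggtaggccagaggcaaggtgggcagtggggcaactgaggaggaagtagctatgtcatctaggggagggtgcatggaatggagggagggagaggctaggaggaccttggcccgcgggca
These 250 bases held no AGGTCA, the letters of 1 repeat of nuclear receptor sites such as those of PPAR-alpha, on either strand, in either gene. Over the 300-base windows AGGTCA lay in 6 of 21 windows of fatty acid oxidation genes that stepped down in liver (28.6%), in 5 of 21 of gluconeogenesis genes that did (23.8%), in 12.8% of windows of genes on the array and in 15.7% of all windows.

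Most fatty acid oxidation genes were lower in EMD150 liver than in control liver. Of 36 measured genes of that list, 26 stepped down in liver (72.2%) and 2 stepped up, against 27.7% and 19.2% of all 10411 genes. In liver, 31 were lower at EMD150 than in control (86.1%), as were 58.8% of all genes. The median difference at EMD150 was -0.48 in liver, -0.07 in whole embryo and -0.05 in bone, and at EMD50 it was -0.17 in liver. The following genes of this list and the next were chosen after their values were seen. Ech1, a peroxisomal and mitochondrial dienoyl-CoA isomerase, was 10.86, 10.43 and 9.61 in liver, and Eci1, an enoyl-CoA isomerase, 10.74, 10.62 and 9.67. Acaa2, the thiolase of the mitochondrial spiral, was 12.08, 11.84 and 11.08. Cpt2, which moves acyl groups into the mitochondrial matrix, was 10.67, 10.46 and 9.90 in liver and stepped down in all 3 tissues. Against the group, Cyp4a1, a fatty acid hydroxylase that responds to PPAR-alpha, was 7.56, 7.98 and 8.05, and the fatty acid transporter Cd36 was 9.66, 9.64 and 10.17. Ppara itself was 8.26, 7.70 and 7.96, without a dose order. The probe sets of Cpt1a, the entry enzyme of mitochondrial oxidation, did not agree: one was 9.60, 9.21 and 9.63 in liver and another 8.76, 8.01 and 7.01.

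Most genes of glucose production and amino acid breakdown were lower in EMD150 liver too. Of 31 measured, 24 stepped down in liver (77.4%) and 3 stepped up, with a median difference of -0.54 at EMD150 and -0.08 at EMD50 in liver, 0.06 in whole embryo and -0.14 in bone. Bhmt, which remethylates homocysteine, was 11.85, 11.61 and 10.52 in liver, and Fah, the last enzyme of tyrosine breakdown, 12.39, 12.31 and 11.40. Agxt, which detoxifies glyoxylate, was 9.90, 9.66 and 8.91. Pck1, which with Fbp1 commits carbon to glucose, was 9.02, 8.54 and 8.29. Against the group, tyrosine aminotransferase Tat was 6.51, 6.30 and 6.996 and the coactivator Ppargc1a 5.40, 5.47 and 5.80. After quantile normalization 22 of the fatty acid oxidation genes and 24 of the gluconeogenesis genes stepped down in liver, against 23.3% of all probe sets. After equalising the SD 24 and 22 did, against 3658 of all 15866 probe sets. Level moves with the first list: 17 of its 36 genes lie in the highest of the 4 groups by mean value, where 34.8% of probe sets stepped down in liver.

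**Figure D3:**
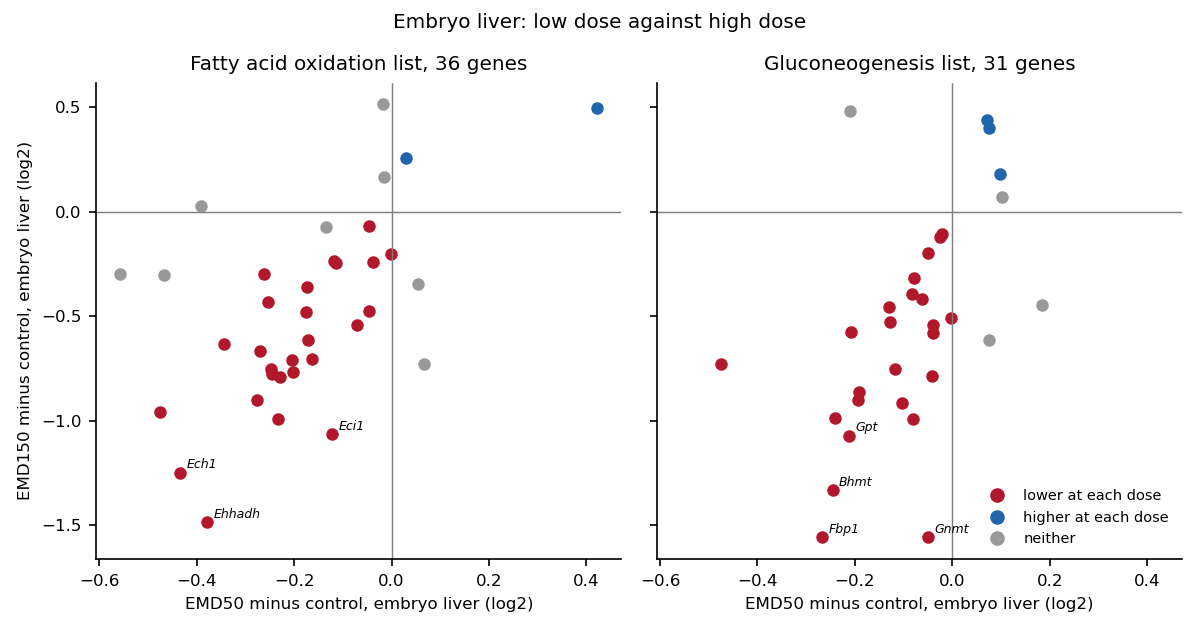
Each point is a gene of the fatty acid oxidation list (left, 36 genes) or the gluconeogenesis and amino acid breakdown list (right, 31 genes), with the EMD50 minus control difference in embryo liver on the horizontal axis and the EMD150 minus control difference on the vertical axis, both in log2 units. The 26 and 24 red points step down at both doses, so by definition each of them lies farther from 0 on the vertical than on the horizontal axis.

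Some of the most abundant secreted plasma proteins differed little in liver. There, Alb was 14.98, 14.95 and 14.96, Afp 14.67, 14.63 and 14.67 and Apoa1 14.11, 14.16 and 14.17, and these values lie near the top of the scale, where probe sets can be close to saturation; that part was not tested. The median over 27 secreted protein genes was -0.18 in EMD150 liver, against -0.06 over all genes. Of the 27, 21 were lower in EMD150 liver than in control (77.8%, against 58.8% of all genes). In liver 12 of them stepped down (44.4%, against 27.7% of all genes) and 4 stepped up. Myeloid markers averaged 9.36, 9.38 and 9.01 in liver. The 2 metabolic lists had a maternal liver slope below 0 for 29 of 36 genes (80.6%) and 26 of 31 (83.9%), against 49.9% of all genes. Of the 42 liver-only probe sets that stepped down, 34 had a maternal slope below 0 (81.0%, against 46.3% of all probe sets). Of the 11 that stepped up, 7 had one above 0 (63.6%, against 53.7% of all probe sets). At an unadjusted p under 0.05 (limma), 4 of the 42 were lower (9.52%, against 1.97% of all probe sets): Hacl1 (-0.57 ± 0.15), Gnmt (-0.49 ± 0.13), Aqp1 (-0.44 ± 0.14) and Dmgdh (-0.42 ± 0.18). Ehhadh gave -0.02 ± 0.18 and Fbp1 -0.33 ± 0.15 in maternal liver. Xist, which is expressed from the inactive X chromosome of females, was 8.86, 9.63 and 6.64 in liver and 9.96, 11.30 and 6.00 in bone, so the EMD150 arrays of both day 20 tissues stood apart from the others in it; its part in the liver differences was not tested.

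The difference between liver and the other tissues was tested as the liver slope minus the mean of the embryo and bone slopes. Over the 9 arrays no probe set was called (limma, 0% of 15866), and Sult1b1 came closest at -1.92 ± 0.15 (adjusted p = 0.0580). At an unadjusted p under 0.05, 686 probe sets were lower in liver (4.32%) and 456 were higher (2.87%). Ehhadh differed by -1.41 ± 0.14 (adjusted p = 0.189), Fbp1 by -1.32 ± 0.41 (0.591), Serpina3c by -2.95 ± 0.37 (0.356) and Trpv6 by -0.29 ± 0.35. Of the gluconeogenesis list, 10 of 31 genes were lower in liver and 1 higher at an unadjusted p under 0.05, against 4.28% and 2.26% of all genes, and of the fatty acid oxidation list 3 of 36 were lower.

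Without the EMD50 bone array, whose 3′ to 5′ difference stood apart, the same test called 91 probe sets lower in liver (0.574%) and 107 higher (0.674%). Sult1b1 was then at -1.91 ± 0.17 (limma adjusted p = 1.31e-04, 1.31e-04 to 1 over the alternatives), Serpina3c at -2.92 ± 0.29 (4.85e-04; 4.85e-04 to 1) and Ehhadh at -1.40 ± 0.15 (8.82e-04; 6.46e-04 to 1). Fbp1 was called at an adjusted p of 0.0323 (limma, 0.0055 to 1 over the alternatives). Other large lower calls were Cyp4f1, a fatty acid and eicosanoid hydroxylase (-1.92), and Cyp7a1, the rate-limiting enzyme of bile acid synthesis (-1.84), which was 10.27, 10.18 and 8.45 in liver. The glycerol phosphate dehydrogenase Gpd1 (-1.87) differed by -0.85 in liver but by 1.55 in bone and 0.43 in embryo, so its contrast drew on bone and embryo as well as on liver. In all 91 the EMD150 liver value lay below control.

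Of the 107 higher calls, 96 had an EMD150 liver value above control and 11 below. Some were higher in liver alone, such as Rab3c, a GTPase of vesicle release, which differed by 1.35 in liver, 0.05 in embryo and 0.08 in bone. Another was Prkaa1, a catalytic subunit of the energy sensor AMPK, at 1.13 in liver, 0.18 in embryo and 0.03 in bone. In liver Rab3c was 5.61, 5.61 and 6.96 and Prkaa1 5.66, 5.71 and 6.78, so the rise lay almost wholly on the EMD150 liver array. Both signals were weak, as the lowest of the 4 groups by mean value reached up to 7.08. The largest contrasts were those of Afp (3.18), Fgg (2.90), Apoa1 (2.63), Apoa2 (2.18) and Fga (1.90). For Afp and Apoa1 the liver values differed little and the other tissues were lower: Afp was 13.78, 12.73 and 12.03 in whole embryo and 12.34, 7.82 and 7.66 in bone, and Apoa1 was 11.08, 8.91 and 7.86 in embryo. Osteocalcin, Bglap, was higher by contrast because it was 11.30, 10.42 and 9.34 in bone. The count of calls rests on which array is left out. It was 780 without the control bone array and 1550 without the EMD150 bone array, 1 without the EMD150 liver array and 0 without any other single array. Leaving out 1 array of a tissue leaves that tissue's slope on 2 arrays with no residual, so the spread is then set by the remaining tissues. By name, 72 probe sets were called whichever 1 bone array was left out, among them Serpina3c, Sult1b1, Cyp4f1, Cyp7a1, Ehhadh, Asgr1, Gpt, Dmgdh and Cebpa, lower in liver, and Hbg1 and Bglap, higher.

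For the common slope, leaving out the EMD50 bone array gave 0 calls again (limma, lowest adjusted p = 0.0776), with 1769 probe sets higher and 2401 lower at an unadjusted p under 0.05. The lowest p-values then included Acat1, the mitochondrial thiolase of ketone metabolism (-0.69), and Hsd17b10, a mitochondrial dehydrogenase of fatty acid and isoleucine breakdown (-0.76). Also among them were Serp1, which protects membrane proteins in the endoplasmic reticulum (-0.71), Mia2 (-0.74), Ctbs (-0.77) and Hmmr (0.73). With bone judged on control and EMD150 only, 1114 probe sets stepped up and 1274 down in all 3 tissues, and 4 and 20 did so in liver alone. The smaller liver counts follow from the bone condition, which 2 arrays meet more easily.

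**Figure D4:**
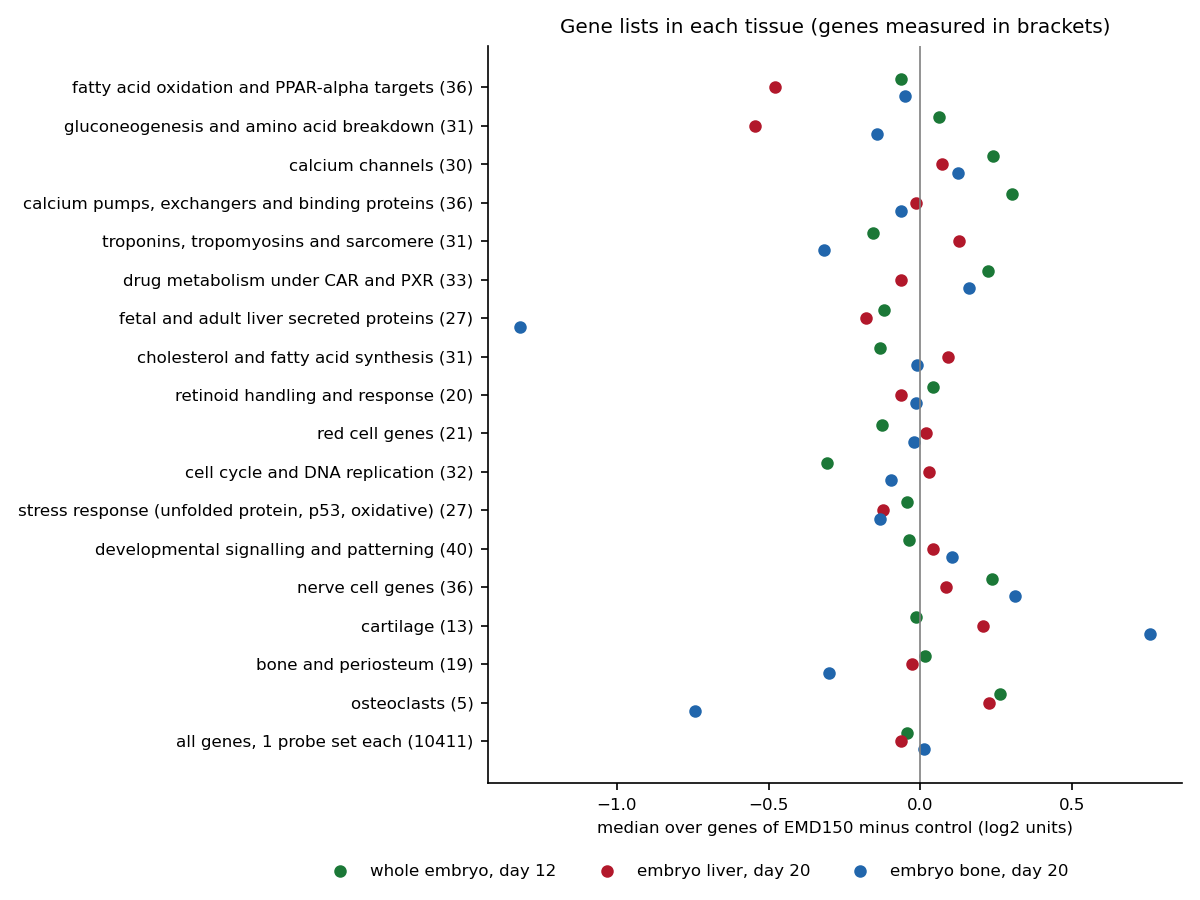
Median over the measured genes of each list (number in brackets) of EMD150 minus control, in log2 units, in whole embryo, embryo liver and embryo bone, with 1 array per tissue and dose and all 10411 genes at the bottom. The fatty acid oxidation (-0.48) and gluconeogenesis (-0.54) lists lie farthest below 0 in liver, and in bone the secreted protein list lies at -1.32 and the cartilage list at 0.76.

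The remaining lists differed by tissue. In bone, the 13 cartilage genes had a median difference of 0.76 and the 19 genes of bone and periosteum one of -0.30. Col9a2, a collagen of cartilage, was 10.67, 11.45 and 12.14 in bone and stepped up in all 3 tissues (slope 0.71 ± 0.22), and Col2a1 was 12.67, 13.14 and 13.43 in bone but 11.29, 10.87 and 10.66 in whole embryo. Averaged over their markers, chondrocyte genes were 10.51, 11.05 and 11.47 and osteoblast genes 11.92, 11.47 and 11.10 in bone, while skeletal muscle genes were 13.17, 12.75 and 12.78. The secreted liver protein list had a median of -1.32 in bone, where the control array held the hepatocyte transcripts given above. In whole embryo, 8 visceral yolk sac markers averaged 10.14, 8.93 and 8.63, with Rbp4 at 11.25, 8.58 and 7.77 and the receptor Cubn at 8.48, 7.32 and 7.10; the part of yolk sac tissue in the embryo values was not tested. Drug metabolism genes under the receptors CAR and PXR counted 4 higher and 2 lower of 33 by the common slope at an unadjusted p under 0.05 (8.11% and 10.9% of all genes). In embryo liver 11 of the 33 stepped down (33.3%) and 8 up, against 27.7% and 19.2% of all genes. The median at EMD150 there was -0.06, the same as over all genes. Cyp2c7 was 6.97, 7.39 and 8.46 there. In maternal liver 12 of the 33 were higher at an unadjusted p under 0.05 (36.4%, against 1.85% of all genes).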

How the data were processed

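Total RNA was measured on 1-colour rat expression arrays, 1 per sample. The deposited log2 values were made by the authors with RMA, per the submitters' processing notes; its version and settings were not given in the sources used, and RMA shrinks differences of weak probe sets. Of 15923 rows, 57 array controls were left out, and 15866 probe sets were tested with no filter. Of these, 12783 had 1 symbol in the platform table, 312 several and 2771 none. Groups came from the labels. limma 3.58.1 (R 4.3.3; lmFit, eBayes with trend) fitted dose with tissue as a block (5 residual degrees of freedom) and, for the liver contrast, a slope per tissue (3), with Benjamini-Hochberg adjustment over all probe sets and a call at 0.05. With 1 array per tissue and dose there are no replicates, and the number of arrays limits the precision. The errors of the common slope measure departure from a slope that the tissues share. Those of the liver contrast measure departure of each tissue from its own line. The fits were tested on simulated data. List counts use the probe set with the highest mean for each gene. Named genes were those with the smallest p, the largest smallest difference among genes ordered in all 3 tissues, the largest liver difference, up to 4 genes per list by p, and the given markers. Afp was named as a check of the labels. Genes named outside that rule (such as Cyp7a1 without the EMD50 bone array) were chosen after their values were seen, as were the contrasts of Afp and Apoa1 without that array. The members and lists were chosen with earlier results of these data known. Promoters are RefSeq GRCr8 windows of 250 bases before and 50 after the start, the first listed per symbol. The alternatives changed normalization, level filter, step size and arrays.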

Additional observations from a re-analysis of the deposited data

How the results depend on the processing

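The common dose slope had 0 calls under each alternative run (limma; lowest adjusted p 0.0776 to 0.517), among them dose as a rank, EMD150 against control alone, a robust prior and no intensity trend. Its counts at an unadjusted p under 0.05 moved more: 331 higher for probe sets above the median level, 979 higher and 701 lower without whole embryo, 396 lower without liver and 2500 lower without bone. Leaving out 1 array gave 685 (without EMD150 liver) to 2401 (without EMD50 bone) lower. The liver contrast had 0 to 1550 calls when 1 array was left out, and 22 to 1759 higher and 64 to 2303 lower at an unadjusted p under 0.05, the lowest without EMD150 liver. It had 786 higher after quantile normalization, 928 at equal SD, and 67 higher and 177 lower above the median level. The genes ordered in all 3 tissues were 156 down after quantile normalization and 112 up above the median level. They were 792 up and 463 down without whole embryo, 1288 and 584 without liver, and 1335 and 1702 without bone, where fewer tissues have to share an order. They were 1114 and 1274 without the EMD50 bone array, and 175 and 153 where each difference had to reach 0.2. The liver-only set had 24 up after quantile normalization, 25 at equal SD, 4 up and 18 down above the median level, 4 and 20 without the EMD50 bone array and 238 and 368 at a difference of 0.5. Apart from the counts that follow from fewer arrays or another limit, the cause was not tested.

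Of the named genes, 11 slope values changed sign. Without bone the slope of Ctsk was 0.26, of Mmp9 0.21 and of the Alb probe sets 0.70 and 0.60, and after quantile normalization that of Ctsk was 0.0047. Leaving out 1 array gave -0.31 to 0.29 for Ctsk, -0.58 to 0.17 for Mmp9, and -1.53 to 0.31 and -1.68 to 0.16 for Alb. The liver contrast changed sign for 6 values, and leaving out 1 array gave -0.81 to 2.40 for Cct2, -0.30 to 1.26 for Mrpl51, -2.57 to 0.37 for Adh1c, -2.28 to 1.00e-04 for Gnmt, -2.66 to 0.14 for St13 and -1.05 to 0.016 for Trpv6 (4 of these 6 turned without the EMD150 bone array). Counts of list genes under other settings were chosen after seeing the data. After rescaling, 22 to 24 fatty acid oxidation genes and 22 to 24 gluconeogenesis genes were ordered downward in liver. Without the EMD150 liver array 32 and 25 were lower at EMD50, as were 48.3% of all genes. Without the EMD50 liver array 31 and 26 were lower at EMD150, as were 58.8% of all genes. A slope above 0 was found for 22 to 24 calcium channel and 27 to 34 nerve cell genes, against 45.5% of all genes over the 9 arrays.

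No paired analysis was possible because each tissue and dose has 1 array and the labels give no numbers shared between groups.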
